A study of Mus musculus with 44 samples.

Results

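The nuclear-encoded subunits of oxidative phosphorylation were followed through 4 RNA fractions of mouse forebrain. The set was chosen by symbol from the protein-coding genes of GENCODE release M21: Nduf genes of the a, b, c, s and v series, Sdha to Sdhd, Uqcr genes, Cox4 to Cox8, Cycs and Atp5 genes, without assembly factors. It held 86 of the 50714 gene identifiers counted in every library: 37 of complex I, 4 of complex II, 8 of complex III, 18 of complex IV, 18 of complex V and Cycs, which encodes cytochrome c. The 86 identifiers carry 85 symbols, because Atp5o is annotated at a pair of loci, and 1 of these was at 0 in every library. The locus at 0 has 100% of its longest coding transcript matched in other annotated genes and the other 92%, so a 0 cannot be told apart from reads left unassigned. Values for Atp5o below are those of the locus with reads.

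Oxidative phosphorylation passes electrons from NADH (complex I) or succinate (complex II) through complex III and cytochrome c to oxygen at complex IV, and complex V, the ATP synthase, uses the proton gradient built on the way to make ATP. Each complex except complex II joins subunits translated in the cytosol from nuclear genes with a few translated inside mitochondria from mitochondrial DNA. In brain this pathway supplies most of the ATP used at synapses, and neurons keep mitochondria in axons, dendrites and terminals far from the cell body.

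All mice carried 1 copy each of a CX3CR1-CreERT2 allele, a tamoxifen-dependent Cre recombinase under the promoter of a microglial and macrophage receptor, and of a floxed RPL10a-GFP allele, a ribosomal protein tagged with GFP. Tamoxifen mice received 100 mg/kg on postnatal days 15, 17 and 19, control mice are given as vehicle in the sample labels and as untreated in the series design, and dorsal cortex with hippocampus was taken at postnatal days 28 to 29. Input was total RNA from homogenised tissue, and MG_TRAP was what an antibody to GFP pulled out of it (translating ribosome affinity purification, TRAP). SN_input was RNA of the synaptosome fraction, pinched-off terminals with what adheres to them, and PeMP_TRAP the immunoprecipitate of that fraction, titled SN_TRAP in part of the libraries. Control mice gave 3 libraries per fraction (replicates A to C) and tamoxifen mice 8, namely D to F in a first set with the controls and G to K in a second set that differs in title style and file naming. Whether a letter stands for 1 animal or a pool is not stated, so p-values measure the spread between these libraries.

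The 44 libraries held 746616 to 35584637 reads assigned to genes. All 8 microglial markers were higher in MG_TRAP than in Input of tamoxifen mice, with a median log2 fold change of 6.63, and all 8 were higher in PeMP_TRAP than in SN_input, with a median of 3.71. In control mice the same medians were 3.70 and 1.08, and 0 of 8 markers were called in either step with edgeR. Neuronal RNA was still present in the immunoprecipitates, where the 10 neuronal markers summed to 1664 to 8186 counts per 1000000 assigned reads (CPM) in MG_TRAP and 764 to 4355 CPM in PeMP_TRAP of tamoxifen mice. In Input of tamoxifen mice the same sum was 12182 to 17360 CPM. The 8 oligodendrocyte markers summed to 7543, 8265, 15212, 2811 and 1718 CPM in second-set MG_TRAP (G to K) and 6567 to 8154 CPM in Input of that set, with overlap. First-set tamoxifen libraries held 431 to 1866 CPM of them in MG_TRAP and 3745 to 9260 CPM in Input. Astrocyte markers summed to 400 to 2107 CPM in MG_TRAP and 2222 to 3903 CPM in Input of tamoxifen mice. The part of these cells in the results below was not tested. Input libraries of the first set were split: the 86 genes took 1.51% and 1.77% of reads in D and A and 6.54% to 7.44% in B, C, E and F. Second-set Input, at 2.41% to 2.71%, was nearer to D and A. Protein-coding genes under 1000 bases outside the 86 were split alike. They took 0.97% and 1.18% of protein-coding reads in D and A, 2.96% to 4.12% in B, C, E and F and 1.80% to 2.06% in second-set Input. Unaligned reads made up 3.73% and 5.70% in D and A, 9.89% to 19.5% in B, C, E and F and 2.98% to 3.55% in second-set Input. The part of transcript length in this split was not tested.

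The sequences of the c-subunit genes are given because the shares of these genes are compared between fractions, and 3 promoters to show a motif counted over the members. Atp5g1 (chromosome 11, 96068852 to 96075670), Atp5g2 (chromosome 15, 102662864 to 102672352) and Atp5g3 (chromosome 2, 73908447 to 73911326), all on the minus strand of GRCm38, encode the c subunit, which forms the rotating ring of the ATP synthase. In the last 75 codons of the annotated coding sequences the translations differed at 0 residues in every pair of genes, while Atp5g1 and Atp5g2 differed at 34 of 225 bases, Atp5g1 and Atp5g3 at 45 and Atp5g2 and Atp5g3 at 48. Codons 53 to 72 of that stretch are shown from the GENCODE M21 transcripts, with capitals at the 18 positions where the 3 genes are not all alike.
Atp5g1: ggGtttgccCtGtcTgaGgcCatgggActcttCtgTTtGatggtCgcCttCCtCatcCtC
Atp5g2: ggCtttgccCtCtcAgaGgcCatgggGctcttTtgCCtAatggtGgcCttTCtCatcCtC
Atp5g3: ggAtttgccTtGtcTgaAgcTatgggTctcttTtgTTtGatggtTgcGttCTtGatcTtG

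Over all 225 bases the longest run shared by any pair was 20 bases. Counts of the 3 genes were compared as shares of their sum.

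Nuclear respiratory factor 1 (NRF1) is a transcription factor known for binding promoters of respiratory chain genes at a palindromic GC-rich motif. The RefSeq promoter table (GRCm38.p6, 250 bases before to 50 after each start) held 67 of the 85 symbols. The NRF1 motif, printed in capitals in the windows below and searched on both strands with any base allowed at the sixth position, occurred in 17 of these 67, or 25.4%, and in 5.19% of all 27025 genes in the table. Windows upstream of the start are shown for Cox6a1 (chr5:115349086-115349145), Sdha (chr13:74350304-74350363) and Atp5h (chr11:115420026-115420085), read on the minus strand, with the motif in capitals.
Cox6a1: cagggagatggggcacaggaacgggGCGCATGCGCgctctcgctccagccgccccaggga
Sdha: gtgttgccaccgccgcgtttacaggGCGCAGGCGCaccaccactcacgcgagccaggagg
Atp5h: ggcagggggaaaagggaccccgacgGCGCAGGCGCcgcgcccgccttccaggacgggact

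Other motifs were searched on both strands as well. The estrogen-related receptor motif TCAAGGTCA occurred in 2 of 67 members (Sdhd and Atp5g3) and 0.466% of all genes, and the YY1 motif AAGATGGCG in 7 of 67 (Ndufa9, Ndufc1, Ndufs4, Ndufs6, Ndufs7, Atp5j and Atp5j2) and 1.64% of all genes. The TATA motif TATAAA occurred in 7 of 67 members and 15.7% of all genes. A match is a description of these letters and not a binding site.

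Together the 86 genes took a different share of reads in each fraction. In the second set they took 2.62%, 2.54%, 2.41%, 2.71% and 2.57% of assigned reads in Input (G to K) and 1.73%, 1.71%, 1.58%, 1.34% and 1.56% in MG_TRAP. In SN_input they took 5.39%, 5.2%, 5.66%, 5.91% and 5.51%, and in PeMP_TRAP 3.09%, 3.46%, 3.39%, 2.77% and 2.83%. The 4 fractions of this set did not overlap, with SN_input highest and MG_TRAP lowest. In tamoxifen libraries of the first set (D, E, F) the shares were 1.51%, 7.44% and 6.54% in Input, 1.24%, 6.27% and 6.83% in MG_TRAP, 4.72%, 5.26% and 4.36% in SN_input and 2.01%, 6.70% and 5.88% in PeMP_TRAP, and all fractions overlapped. The order of these groups depended on the denominator. As a share of protein-coding reads without the mitochondrially encoded genes, the same libraries had 1.55%, 9.05% and 7.87% in Input, 1.25%, 6.51% and 7.10% in MG_TRAP, 5.63%, 13.9% and 13.1% in SN_input and 2.05%, 9.05% and 6.50% in PeMP_TRAP. On that denominator 2 of 3 SN_input libraries lay above all Input libraries of the group, and on all assigned reads none did. Letter by letter, SN_input lay above Input in D, E and F on that denominator, and in D alone on all assigned reads. Control libraries (A, B, C) took 1.77%, 7.36% and 7.11% in Input and 2.01%, 3.03% and 2.32% in SN_input, with overlap. In their immunoprecipitates the shares were 1.37%, 5.61% and 1.32% in MG_TRAP and 1.22%, 3.6% and 1.39% in PeMP_TRAP, with B highest in both. In bulk RNA, fewer cells of a type and less RNA per cell cannot be told apart.

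**Figure D1:**
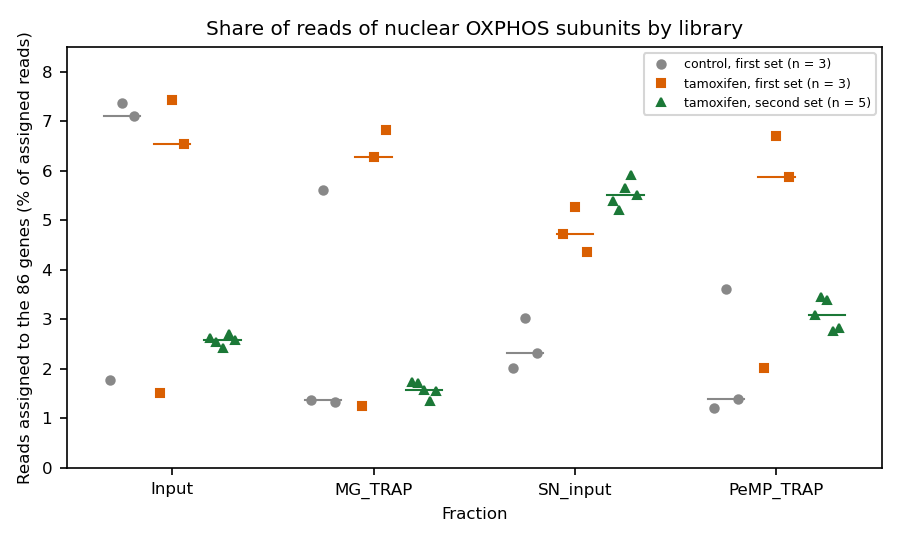
Share of assigned reads taken by the 86 genes (y axis, %) in each library of the 4 fractions (x axis), with control and tamoxifen libraries of the first set and tamoxifen libraries of the second set side by side and a short line at each median. The second set separates the fractions, with SN_input at 5.2% to 5.91% and MG_TRAP at 1.34% to 1.73%, while the first set spreads from 1.51% to 7.44% within tamoxifen Input alone.

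Per kilobase of exonic length, Cox6a1 and Cox8a, small membrane subunits of complex IV in their widely expressed isoforms, were the highest of the 86 genes in all 4 fractions of the second set. Cox6a1 stood at 1875 ± 155 CPM per kb in Input, 1019 ± 146 in MG_TRAP, 7377 ± 808 in SN_input and 6006 ± 1784 in PeMP_TRAP (SD, n = 5 each). Cox8a stood at 1600 ± 141, 1012 ± 63.3, 5883 ± 408 and 6165 ± 2320 in the same order, so the first 2 ranks were apart by less than their spread in MG_TRAP and PeMP_TRAP. Next in Input came Cox4i1 (765 ± 49.2 CPM per kb), a regulatory subunit of complex IV, Uqcr11 (761 ± 38.3), a small subunit of complex III, and Cox6b1 (671 ± 28.6), which faces the intermembrane space. The catalytic ATP synthase subunits were at a lower level, with Atp5a1 at 342 CPM per kb and Atp5b at 302 in Input.

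Isoforms known from muscle, testis or hypoxic tissue were mostly at a few CPM or less. Cox7b2, Cox8b and Cox8c averaged under 1 CPM in every fraction of the second set. Cox4i2, Cox6b2, Cox7a1 and Ndufa4l2 averaged 0.835 to 6.25 CPM in Input, MG_TRAP and SN_input. In PeMP_TRAP Cox4i2 ranged from 0 to 93.2 CPM and Cox7a1 from 0 to 60.3 CPM, both with a median of 0. Cox6a2, the heart and skeletal muscle isoform of Cox6a1, was higher, at 28.2, 31.9, 24.1, 30.6 and 28.1 CPM in second-set Input and 69.3, 65.2, 114, 61.2 and 65.1 CPM in SN_input. In Input it made up 1.91% to 2.46% of the summed Cox6a1 and Cox6a2 level per kilobase. In PeMP_TRAP it ranged from 0 to 296 CPM over the 5 libraries, and none of its comparisons passed the test (edgeR adjusted p = 0.43 for SN_input against Input and 0.052 for PeMP_TRAP against MG_TRAP).

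The synaptosome fraction was compared with the homogenate after TMM scaling. Of 82 members that passed the filter on low counts, 24 were higher in SN_input than in Input of tamoxifen mice and 0 lower, where 2.08% of all 15710 genes tested were higher and 2.55% were called in either direction. The filter left out Cox7b2, Cox8b, Cox8c and the Atp5o locus at 0 in every library. The median log2 fold change was 1.37 over the 82 members and -0.02 over all genes, and 78 members were above 0. In unscaled CPM of the second set, 56 members lay above Input without overlap and 9 below, a count not made over all genes. Mean Atp5a1 went from 1072 to 688 CPM, Sdhd from 191 to 113 and Uqcrfs1 from 204 to 120. Second-set TMM factors were 1.62 to 1.68 in Input and 0.886 to 0.928 in SN_input, so scaled changes lie above those in CPM. Complex IV had 9 of 15 tested members higher (median 2.22), complex I 11 of 37 (median 1.43), complex III 3 of 8 (median 1.35), complex V 1 of 17 (median 1.18, Atp5j2) and complex II 0 of 4 (median 0.78). Scaling moved these counts: 10 members were higher with DESeq2-style (RLE) factors and 5 with total counts, where 0.853% and 0.592% of all genes were higher and the median of all genes was -0.72 and -1.07. A scaling factor shifts all genes of a library alike, so the median of members minus that of all genes, 1.39, is nearly fixed by construction and is no sign of stability.

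**Figure D2:**
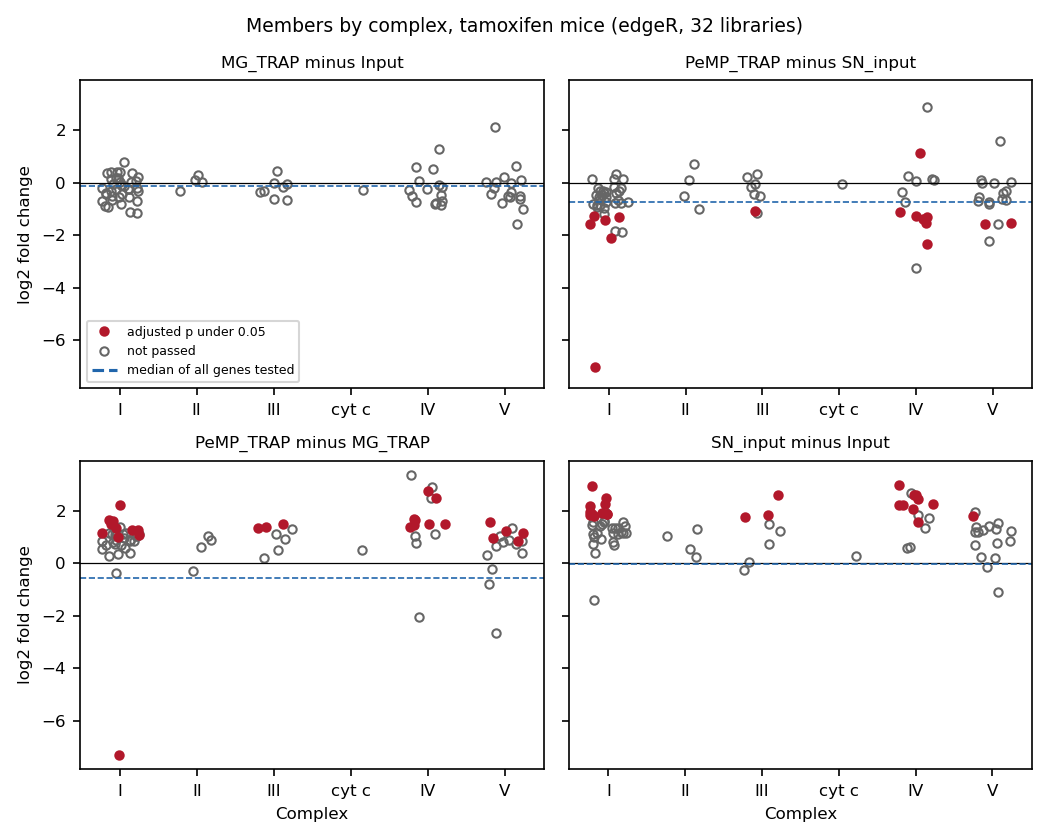
log2 fold change (y axis) of each tested member, grouped by complex (x axis), in 4 comparisons of fractions from tamoxifen mice; filled points passed an adjusted p of 0.05 and the dashed line is the median of all genes tested. SN_input minus Input has 24 filled points, all above 0, and MG_TRAP minus Input has 0.

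Cox6c, a small complex IV subunit, had the largest log2 fold change. It measured 674, 637, 574, 679 and 624 CPM in second-set Input and 3939, 3377, 4117, 3844 and 3563 CPM in SN_input. In the first set (D, E, F) it measured 193, 3599 and 3208 CPM in Input and 1633, 4425 and 3917 CPM in SN_input. SN_input lay above Input without overlap in the second set, and the fractions overlapped in the first. The log2 fold change was 2.98 ± 0.50 (SE, edgeR adjusted p = 1.1e-04, 8 libraries each).

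Ndufb9, an accessory subunit in the membrane arm of complex I, and Uqcr11 followed among the members that passed. Ndufb9 measured 262, 234, 223, 220 and 217 CPM in second-set Input and 1242, 1026, 1217, 1215 and 1079 CPM in SN_input, with a log2 fold change of 2.96 ± 0.39 (SE, edgeR adjusted p = 1.2e-06). Uqcr11 had a log2 fold change of 2.61 ± 0.50 (SE, edgeR adjusted p = 7.5e-04). Neither gene overlapped between the fractions of the second set, and Uqcr11 overlapped in the first.

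Cox4i1 gave the smallest p-value. It measured 1317, 1119, 1155, 1174 and 1163 CPM in second-set Input and 4346, 3950, 3862, 4838 and 4415 CPM in SN_input. In the first set (D, E, F) it measured 601, 1308 and 1267 CPM in Input and 4308, 1564 and 1413 CPM in SN_input. The fractions did not overlap in either set. The log2 fold change was 2.59 ± 0.26 (SE, edgeR adjusted p = 3.3e-09), and Cox6a1 was at 2.58 ± 0.44 (SE, edgeR adjusted p = 1.4e-04).

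All 7 widely expressed partners of tissue-restricted isoforms (Cox4i1, Cox6a1, Cox6b1, Cox7a2, Cox7b, Cox8a and Ndufa4) were higher in SN_input. Ndufa4, which copurifies with complex IV although it is named for complex I, changed by 1.82 ± 0.38 (SE, edgeR adjusted p = 0.0026). Cox7c, another small complex IV subunit, changed by 2.23 ± 0.51 (SE, edgeR adjusted p = 0.0074). The lowest changes that passed belonged to Cox7b (1.59), Uqcrq (1.77), a ubiquinone-site subunit of complex III, and Atp5j2 (1.80), the f subunit of the ATP synthase membrane part.

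Of the 30 complex I symbols outside the core, 11 were higher in SN_input, where 2.08% of all genes were. Their log2 fold changes ran from -1.40 to 2.96 with a median of 1.54. By symbol these 30 include Ndufa4, which is 1 of the 11 though it copurifies with complex IV. They also include its relative Ndufa4l2, at means of 2.69 CPM in second-set Input and 1.00 CPM in SN_input. None of the 7 nuclear core subunits, which carry the flavin, the iron-sulfur clusters and the quinone site, passed with edgeR, and they ranged from 0.41 to 1.56 with a median of 0.94. Ndufv1, the flavin- and NADH-binding subunit, had a log2 fold change of 0.79 ± 0.47 and Ndufs1, an iron-sulfur subunit, 1.20 ± 0.96 (SE, adjusted p = 0.61 and 0.80 with edgeR). Core subunits had a median exonic length of 2178 bases and the 30 other symbols of 1234, and the difference between the classes was not tested.

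Other subunits with catalytic or redox roles did not pass either. Sdha, the flavoprotein of succinate dehydrogenase, stood at 1.31 ± 0.42 and Sdhb, its iron-sulfur protein, at 1.03 ± 0.41 (SE, adjusted p = 0.083 and 0.24 with edgeR). Uqcrc1, a core protein of complex III, stood at 0.75 ± 0.42 and Uqcrfs1, its Rieske iron-sulfur protein, at -0.27 ± 0.95 (SE, adjusted p = 0.56 and 0.98 with edgeR). The c-subunit genes Atp5g1, Atp5g2 and Atp5g3 stood at 1.26, 1.18 and 0.85 (adjusted p = 0.14, 0.74 and 0.27 with edgeR). Cycs stood at 0.29 ± 0.66, and Atp5a1 and Atp5b, the alpha and beta subunits of the ATP synthase head, at 0.23 ± 0.35 and 0.70 ± 0.31 (SE, adjusted p = 0.97, 0.94 and 0.34 with edgeR).

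**Figure D3:**
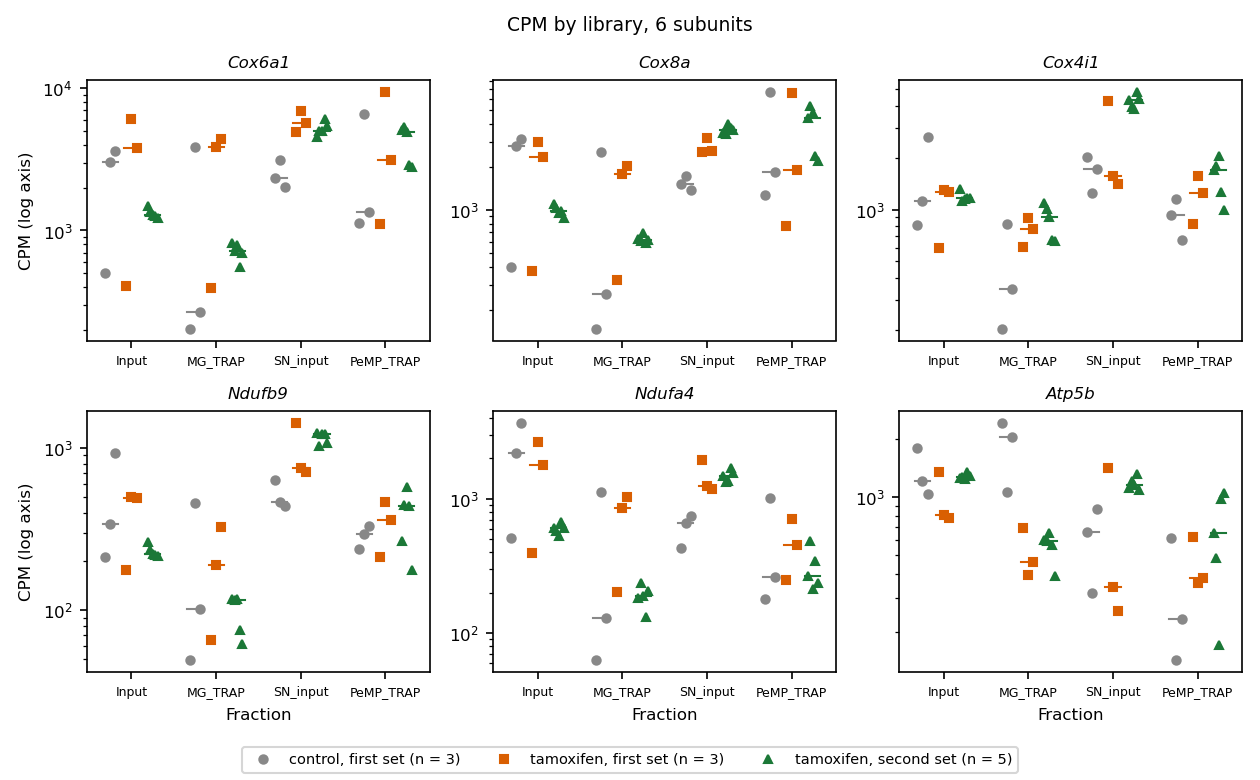
CPM (y axis, log scale) of 6 subunits in every library by fraction (x axis), with the same 3 groups of libraries and a line at each median. Cox6a1, Cox8a, Cox4i1 and Ndufb9 of the second set rise from Input to SN_input without overlap, while Atp5b of the second set stays between 1086 and 1348 CPM in both.

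Shorter genes outside the pathway moved the same way. Among protein-coding genes under 1000 bases of exonic length, the median log2 fold change of SN_input against Input was 1.87 over 20 members and 1.12 over 268 other genes. From 1000 to 2000 bases it was 1.48 over 32 members and 0.43 over 1400 others, and from 2000 to 4000 bases 0.89 over 20 members and 0.01 over 4150 others. Above 4000 bases it was 1.15 over 10 members and -0.15 over 7995 others, so the medians of members did not fall at every step. Across the 82 members the log2 fold change and log2 length had a Pearson r of -0.40 and a Spearman rho of -0.49, over genes that share the same libraries. With a length trend removed from each library, 22 members were called higher, where 2.0% of all genes were. Reads with more than 1 alignment, at 14.2% to 15.8% in second-set Input and 38.5% to 40.1% in SN_input, also moved with this comparison, and their part was not tested.

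Other genes of the organelle were counted as well. All 8 of the tested mitochondrially encoded subunits were higher in SN_input (median 3.58). Of the assembly factors, which help build the complexes, 1 of 42 was higher (median 0.27), as were 1 of 17 genes of the citric acid cycle (median 0.28) and 2 of 77 mitochondrial ribosomal proteins (median 0.57), where 2.08% of all genes were. The difference between these lists and the subunits was not tested. Of the cytosolic ribosomal proteins, which are also short genes, 24 of 95 were higher (median 1.29). Markers moved too, with all 8 microglial markers, 4 of 8 astrocyte, 3 of 8 oligodendrocyte and 0 of 10 neuronal markers higher in SN_input. In the second set the neuronal markers summed to 15273 to 16512 CPM in Input and 7306 to 9202 CPM in SN_input. The oligodendrocyte markers summed to 6567 to 8154 CPM and 22429 to 61531 CPM there. In first-set tamoxifen libraries the oligodendrocyte sums, 3745 to 9260 and 3562 to 17999 CPM, overlapped. The part of these markers in the result was not tested.

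The first set alone did not reach the threshold for any member. In it, 0 of 79 tested members passed, 5 did at an unadjusted p under 0.05 with edgeR, and the median was 0.89, where 0.0463% of all genes passed and 6.05% did unadjusted. In the second set alone 43 of 83 members were higher, where 3.46% of all genes were, with a median of 1.55. Over the 79 members tested in both sets the log2 fold changes were above 0 in both for 73, with a Pearson r of 0.53 and a Spearman rho of 0.61 across genes. The test of the difference between sets called 0 members (2 at an unadjusted p under 0.05, edgeR; 0 with DESeq2), where 0% of all genes were called, 3.45% at an unadjusted p and 1.34% with DESeq2. Without library D, 40 members passed in place of 24, where 2.72% of all genes were higher.

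Whether subunits were called lower on microglial ribosomes of the homogenate depended on the tool and the scaling. In MG_TRAP against Input of tamoxifen mice 0 of 82 members were called with edgeR, where 6.82% of all genes were called in either direction, 4.67% higher and 2.15% lower. At an unadjusted p under 0.05 edgeR gave 5 members and 16% of all genes. DESeq2 called 10 members lower, where it called 5.68% of all genes lower, and edgeR with RLE factors also called 10, where it called 3.36% lower. The median was -0.25 over members and -0.14 over all genes, and -0.77 and -0.66 with RLE factors. Without D or F, 4 and 2 members were called lower, where 2.49% and 2.43% of all genes were. Among members with an average log2 CPM of at least 4 the lowest values were those of Ndufa4, with a log2 fold change of -1.14 ± 0.37, and Atp5g3, with -1.02 ± 0.35 (SE, adjusted p = 0.053 and 0.075 with edgeR).

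In the second set alone 12 of 83 members were lower in MG_TRAP, where 2.68% of all genes were. Ndufa4 measured 605, 575, 525, 666 and 603 CPM in Input and 183, 235, 188, 133 and 205 CPM in MG_TRAP, without overlap (log2 fold change -1.44, edgeR adjusted p = 5.6e-04). Atp5g3 measured 524, 488, 463, 491 and 471 CPM in Input and 195, 190, 133, 107 and 153 CPM in MG_TRAP, also without overlap (log2 fold change -1.43, edgeR adjusted p = 0.0014). Cox6c (-1.24) and Atp5b (-0.99) were among the others. In the first set alone 0 of 79 passed (0 at an unadjusted p under 0.05, edgeR), with a median of 0.14, where 2.54% of all genes passed and 14.1% did unadjusted. The set difference of this step called 0 members (1 at an unadjusted p under 0.05, edgeR; 0 with DESeq2), where 0% of all genes were called, 5.96% at an unadjusted p and 1.76% with DESeq2.

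Of the markers of other cell types, 3 of 10 neuronal (median -1.44), 1 of 8 astrocyte (median -1.40), 1 of 8 oligodendrocyte (median -1.32) and 0 of 6 endothelial markers (median -0.30) were lower, and the mitochondrially encoded subunits were lower for 6 of 8 (median -1.67). The part of RNA from these cells in the values of the subunits was not tested. Among the members with small differences, Sdhb measured 390, 394, 361, 397 and 376 CPM in second-set Input and 358, 359, 288, 213 and 330 CPM in MG_TRAP, with a log2 fold change over both sets of 0.10 ± 0.41 (SE, edgeR adjusted p = 0.96). Cox4i1 had a log2 fold change of -0.18 ± 0.25 and Cox6a1 of -0.27 ± 0.42 (SE, adjusted p = 0.83 and 0.85 with edgeR). The others named by rule that did not pass were Ndufs1 (-0.92), Ndufv1 (-0.88), Atp5b (-0.78), Uqcrfs1 (-0.63), Atp5g1 (-0.53), Cox6a2 (-0.53), Atp5a1 (-0.50), Sdha (-0.31), Uqcrc1 (-0.30), Cycs (-0.27), Cox7c (-0.09) and Atp5g2 (2.10), with edgeR adjusted p from 0.16 to 0.97.

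The 3 genes of the c subunit made up different proportions in different fractions. Per kilobase and in the second set, Atp5g3 supplied 59.4% to 62.1% of the summed level in Input, Atp5g1 26.7% to 29.1% and Atp5g2 10.8% to 11.7%. In MG_TRAP Atp5g2 supplied 24% to 40.2% and Atp5g3 28.3% to 47.3%, so both ranges were clear of those in Input, while Atp5g1 supplied 22.9% to 32.3% and overlapped. In SN_input the shares were 8.68% to 11.3% for Atp5g2 and 54.6% to 59.1% for Atp5g3, and in PeMP_TRAP 17.8% to 44.8% and 32.5% to 53.4%, again without overlap. The order of the genes within a fraction depends on the exonic lengths used, 4912 bases for Atp5g1 and 2181 for Atp5g3. In mean CPM of the second set these 2 genes stood at 504 and 487 in Input and at 773 and 563 in SN_input. In first-set tamoxifen Input Atp5g3 supplied 96.5% to 98.0% per kilobase, so the proportions also differed between the sets.

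**Figure D4:**
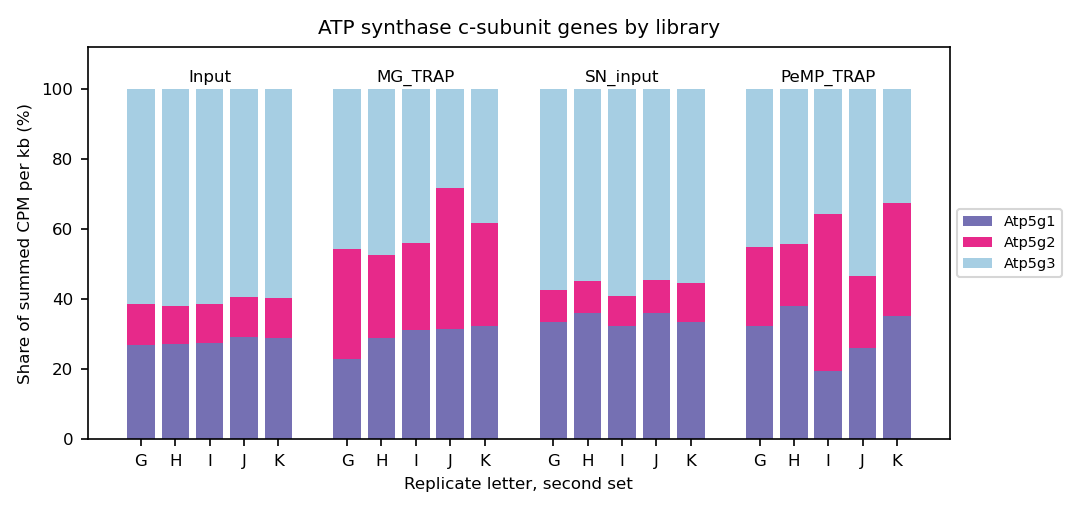
Share of the summed CPM per kb of the 3 c-subunit genes (y axis, %) in each second-set library (x axis, replicate letter), by fraction. Atp5g2 takes 10.8% to 11.7% in Input and 24% to 40.2% in MG_TRAP, and Atp5g3 takes 59.4% to 62.1% and 28.3% to 47.3%.

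In CPM, Atp5g2 measured 76.9, 65.0, 64.6, 72.7 and 69.3 in second-set Input and 103, 74.1, 58.1, 117 and 91.1 in MG_TRAP, with overlap. It measured 61.7, 65.7, 66.4, 86.6 and 86.3 CPM in SN_input and 97.1, 145, 227, 87.7 and 221 CPM in PeMP_TRAP, without overlap. In the second set alone the log2 fold change of Atp5g2 was 0.56 in MG_TRAP against Input and 1.01 in PeMP_TRAP against SN_input (adjusted p = 0.71 and 0.047 with edgeR). It was the 1 member called higher in the latter.

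Atp5g2 could not be followed in the first set, where it was at 0 to 7.30 CPM in all 24 libraries. Other genes differed between the sets in the same way: in tamoxifen Input, Cox7c measured 6.30 to 35.9 CPM in the first set and 319 to 380 in the second, Atp5g1 16.6 to 59.3 and 469 to 541, and Cycs 15.6 to 28.1 and 189 to 234. Of the 86 members 37 have a copy of at least 100 bases at 95% identity in another annotated gene, Cycs in 51 other genes and Atp5g1 in 19, while Atp5g3, Ndufa4 and Cox6a1 have none. Whether reads of such genes were handled differently in the sets was not tested, and their levels were compared within a set.

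The immunoprecipitate of the synaptosome fraction was compared with its input. In PeMP_TRAP against SN_input of tamoxifen mice 15 members were lower and 1 higher, where 26.1% of all genes were lower and 6.15% higher. Most members were thus not called. The median was -0.56 over members and -0.75 over all genes. Complex IV had 6 of 15 members lower, complex I 6 of 37, complex V 2 of 17, complex III 1 of 8 and complex II 0 of 4. Fewer genes were detected in these immunoprecipitates: 5372 to 7369 had at least 1 read in second-set PeMP_TRAP, 14955 to 16876 in SN_input and 12488 to 16515 in MG_TRAP. The part of this loss of genes in the medians over all genes was not tested.

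Cox6c fell by 2.33 ± 0.48 on the log2 scale (SE, edgeR adjusted p = 4.6e-04). In the second set it measured 609, 602, 812, 669 and 496 CPM in PeMP_TRAP, all under the 3377 CPM of the lowest SN_input library. Ndufa4 fell by 2.11 ± 0.38 (SE, edgeR adjusted p = 1.3e-04), with 268, 485, 212, 347 and 238 CPM in PeMP_TRAP and 1469, 1330, 1359, 1688 and 1545 CPM in SN_input. Neither gene overlapped between the fractions in the second set.

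Cox4i1 fell by 1.26 ± 0.25 on the log2 scale (SE, edgeR adjusted p = 3.3e-04), Cox7c by 1.55 ± 0.50, Ndufv1 by 1.32 ± 0.47 and Atp5mpl, a small ATP synthase membrane protein, by 1.57 ± 0.57 (SE, adjusted p = 0.015, 0.029 and 0.030 with edgeR). The smallest falls that passed were Cox7a2 (-1.12), the liver-type isoform of a small complex IV subunit, and Uqcrh (-1.09), the hinge protein of complex III. Cox6a1 and Cox8a, at -0.36 ± 0.41 and 0.06, did not pass, and a difference was not detected for these most abundant subunits (adjusted p = 0.55 and 0.93 with edgeR). Sdha (-0.99 ± 0.42), Atp5g3 (-0.73 ± 0.35), Atp5b (-0.64 ± 0.31) and Ndufs1 (-1.84 ± 0.97) did not pass either (SE, adjusted p from 0.069 to 0.15 with edgeR). Atp5g1 (-0.56), Uqcrfs1 (-0.16), Cycs (-0.05), Sdhb (0.10), Atp5a1 (0.11), Cox6a2 (0.14), Uqcrc1 (0.34) and Atp5g2 (1.58) had adjusted p from 0.17 to 0.97 with edgeR, and Cox6a2 turned to -2.32 with the length trend removed.

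The 1 member called higher was Cox7a2l, which takes part in joining complexes III and IV into supercomplexes, at 1.13 ± 0.44 (SE, edgeR adjusted p = 0.047). It measured 241, 109, 124, 726 and 334 CPM in second-set PeMP_TRAP and 166, 186, 140, 153 and 172 CPM in SN_input, with overlap. The call was kept without H and with total counts. It was lost without any other library, in either set alone, with RLE factors, without the filter, with DESeq2, with the length trend removed and with the replicate block, with adjusted p from 0.051 to 0.37. Ndufa4l2, a relative of Ndufa4 known from hypoxia, was called lower, but it was at 0 in all 8 PeMP_TRAP libraries and at 0 to 1.87 CPM in SN_input, so no fold is given.

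The sets differed in these counts. In the first set alone 0 of 79 members passed (median -0.15), with 0 at an unadjusted p under 0.05 (edgeR), where 2.87% of all genes passed and 23.7% did unadjusted. The second set alone had 37 of 83 lower and 1 higher, where 39.3% of all genes were lower and 4.26% higher, with a median of -0.97 over members and -1.70 over all genes. The test of the difference between sets called 1 of 83 members lower, Cox6b2, and 0 higher, where 14.9% of all genes were lower and 0.189% higher. Left out in turn, library D raised the count called in the fit of both sets from 16 to 30, and G, I and J lowered it to 10, 9 and 10. The shares of all genes called were 34.3% without D and 28.2%, 28.3% and 28% without G, I and J, beside 32.3% with all libraries. With RLE factors 27 were lower, with DESeq2 30, and with the length trend removed 36, where 29.5%, 32.4% and 26.2% of all genes were lower. With the length trend removed the median was -1.25 over members and -0.83 over all genes. The neuronal, astrocyte and oligodendrocyte markers were lower for 8 of 10, 5 of 8 and 7 of 8, and their part in the result was not tested.

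The immunoprecipitates were then compared with each other. In PeMP_TRAP against MG_TRAP of tamoxifen mice 26 of 82 members were higher and 1 lower, where 3.17% of all genes were higher, 22% lower and 25.2% called in either direction. The median log2 fold change was 1.03 over members and -0.57 over all genes, and 75 members were above 0. Complex IV had 8 of 15 higher (median 1.51), complex III 3 of 8 (1.20), complex I 10 of 37 (1.04), complex V 5 of 17 (0.83) and complex II 0 of 4 (0.77). With RLE factors 10 were higher and with total counts 4, where 1.83% and 1.24% of all genes were higher.

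Cox8a had the largest log2 fold change among members that passed, with 627, 606, 691, 588 and 621 CPM in second-set MG_TRAP and 4378, 5344, 4778, 2375 and 2206 CPM in PeMP_TRAP. In the first set (D, E, F) it went from 323, 1791 and 2043 CPM to 770, 6590 and 1904 CPM. The second set did not overlap and the first did, and the log2 fold change was 2.75 ± 0.41 (SE, edgeR adjusted p = 4.0e-05).

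Cox6a1 changed by 2.50 ± 0.45 (SE, edgeR adjusted p = 1.9e-04), from 817, 723, 785, 554 and 696 CPM to 5114, 5311, 4952, 2895 and 2808 CPM in the second set, without overlap. Ndufb9 changed by 2.21 ± 0.38 (SE, edgeR adjusted p = 1.2e-04), from 116, 116, 118, 75.1 and 61.4 CPM to 268, 442, 571, 438 and 176 CPM. All 3 of these small subunits were also among those higher in SN_input than in Input.

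Cox4i1 changed by 1.51 ± 0.25, Uqcrc1 by 1.40 ± 0.43, Atp5g1 by 1.23 ± 0.44 and Atp5g3 by 1.13 ± 0.35 (SE, adjusted p = 9.6e-05, 0.013, 0.036 and 0.015 with edgeR). The call of Uqcrc1 was lost without H or J. In the second set it measured 32.5, 969, 689, 1572 and 171 CPM in PeMP_TRAP and 346 to 505 CPM in MG_TRAP, with overlap. The smallest changes that passed were Ndufb8 (1.00), an accessory complex I subunit, Atp5d (0.96), the delta subunit of the ATP synthase stalk, and Atp5b (0.84). Atp5b lost the call without D, E, G, H, J or K and in either set alone.

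Members that did not pass included Ndufa4 (0.85 ± 0.37), Sdhb (1.03 ± 0.41), Sdha (0.63 ± 0.42), Atp5a1 (0.83 ± 0.35), Cox7c (0.77 ± 0.50), Cycs (0.51 ± 0.66) and Atp5g2 (0.65 ± 0.90) (SE, adjusted p from 0.061 to 0.67 with edgeR). Ndufv1, Ndufs1 and Uqcrfs1 lay between 0.20 and 0.36. Ndufa4l2 was called lower, but in MG_TRAP only library J was above 1 CPM, at 11 CPM, and without J the call was lost (edgeR adjusted p = 0.065), so no fold is given.

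In the first set alone 0 of 79 members passed, 3 did at an unadjusted p under 0.05 (edgeR), and the median was 0.55, where 0% of all genes passed and 10.6% did unadjusted. The second set alone had 45 of 83 higher and 2 lower, where 4.42% of all genes were higher and 38.2% lower, with a median of 1.20 over members and -1.57 over all genes. The test of the difference between sets called 2 of 83 members lower, Sdha and Cox6b2, and 0 higher, where 14.8% of all genes were lower and 0.423% higher. Over the 79 members tested in both sets the signs were both above 0 for 64, with a Pearson r of 0.14 and a Spearman rho of -0.01 across genes. Leaving out D raised the count called from 27 to 45, and leaving out E, G, H, I or J lowered it to 12 to 16. The shares of all genes called were 28.8% without D, 30.9% without E and 19.6% to 20.7% without G, H, I or J, beside 25.2% with all libraries.

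Markers of the cell types were called in both directions: 1 of 8 astrocyte markers was higher (median 1.20), 0 of 8 oligodendrocyte markers were called (median 0.69), 1 of 10 neuronal markers was higher and 3 lower (median -0.42), and 1 of 8 microglial markers was higher and 1 lower (median 0.45). Their part in the result was not tested. Short genes moved here as well, with a median of 1.28 over 20 members and 0.39 over 268 other coding genes under 1000 bases, and 0.61 and -0.79 above 4000 bases. With the length trend removed 18 members were higher and 1 lower, where 3.11% of all genes were higher and 21.4% lower, and the median over members was 0.52. Reads with more than 1 alignment made up 13.2% to 15.3% in second-set MG_TRAP and 38.6% to 51.5% in PeMP_TRAP, and their part was not tested. All 8 mitochondrially encoded subunits were higher in PeMP_TRAP (median 5.81), as were 46 of 95 cytosolic ribosomal proteins, 3 of 77 mitochondrial ribosomal proteins, 2 of 17 citric acid cycle genes and 1 of 42 assembly factors.

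SN_input against Input and PeMP_TRAP against MG_TRAP have no library in common. They shared 14 members called higher, 58.3% of the 24 in the first and 53.8% of the 26 in the second. Of all genes, 141 were called higher in both, 43.1% of the 327 in the first and 28.3% of the 498 in the second. The 14 members were Cox4i1, Cox5b, Cox6a1, Cox6b1, Cox6c, Cox7a2 and Cox8a of complex IV, Ndufa5, Ndufb8, Ndufb9, Ndufb11 and Ndufs4 of complex I, and Uqcr11 and Uqcrq of complex III. The steps may share letters and preparations, so they are not independent experiments.

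The enrichment by immunoprecipitation was compared between the fractions. In the interaction, (PeMP_TRAP minus SN_input) minus (MG_TRAP minus Input), 0 members were higher and 2 lower, where 0.388% of all genes were higher and 10.9% lower. The median was -0.53 over members and -0.79 over all genes. The count lower was 11 in the second set alone and 12 with the length trend removed, where 28.9% and 10.9% of all genes were lower, and 0 in the first set alone, where 0% were. Leaving out 1 library at a time gave 0 to 9 members lower, the highest without D, where 14.2% of all genes were lower, and 0 without H, I, J or K, where 6.41% to 7.56% were. Cox4i1 was lower by the interaction at -1.08 ± 0.35 (SE, edgeR adjusted p = 0.039), that is -1.26 in the synaptosome fraction and -0.18 in the homogenate. The call was lost without G, H, I, J or K, without the filter, and with DESeq2, RLE factors or total counts. The other was Ndufa4l2, with the low counts given above. The other genes named by rule lay between -1.46 (Cox7c) and 0.67 (Cox6a2), with edgeR adjusted p from 0.19 to 1.00. All 8 microglial markers were also lower by the interaction (median -3.01), so the enrichment of microglial RNA itself differed between the fractions, and its part in the value of Cox4i1 was not tested.

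Members with the NRF1 motif and without it were counted in both comparisons, with no test of the difference. In SN_input against Input 2 of 17 with the motif were higher (median 1.24) and 17 of 48 without it (median 1.43), where 2.08% of all genes were higher. In PeMP_TRAP against MG_TRAP the counts were 7 of 17 (median 1.13) and 14 of 48 (median 1.03), where 3.17% of all genes were higher. Of the printed promoters, Cox6a1 belongs to a gene that was higher in both comparisons, Atp5h to one higher in PeMP_TRAP against MG_TRAP alone, at 1.58, and Sdha to one higher in neither.

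The spread between libraries was itself different by fraction. In the second set the coefficient of variation of CPM, for members with a mean of at least 10 CPM, had a median of 6.72% in Input (77 members), 10.3% in SN_input (77), 20.4% in MG_TRAP (76) and 51.2% in PeMP_TRAP (78). Other coding genes at that level had medians of 9.70%, 23.8%, 46.4% and 139% in the same order. Single members reached 194% in PeMP_TRAP, and the difference between members and other genes was not tested. Cox7c was the steadiest in PeMP_TRAP, with 342, 353, 290, 289 and 315 CPM (9.21%). Ndufs1 was at 0, 39.2, 124, 0 and 0 CPM there and at 101 to 129 CPM in Input, and Uqcrfs1 at 19.8, 0, 93.9, 0 and 25.7 CPM, against 184 to 216 CPM in Input.

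**Figure D5:**
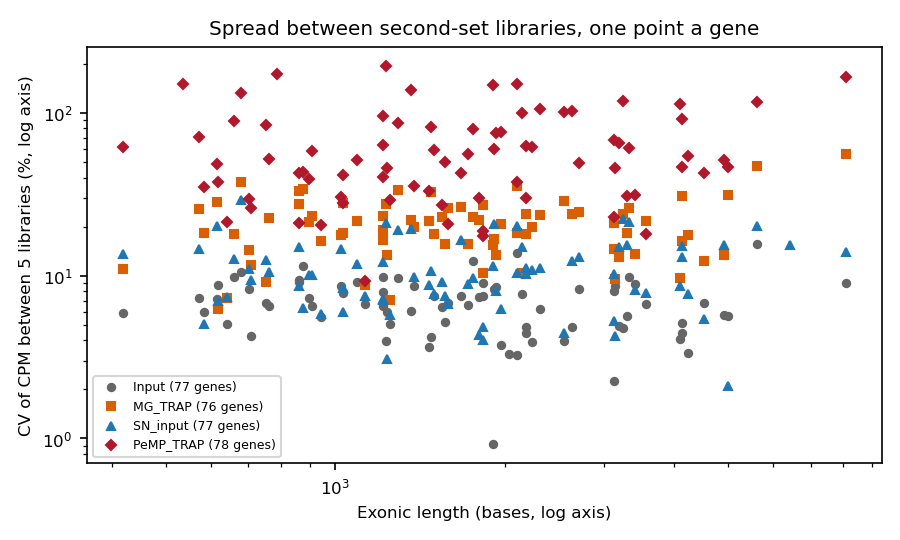
Coefficient of variation of CPM between the 5 second-set libraries (y axis, %, log scale) against exonic length (x axis, bases, log scale), 1 point for each member with a mean of at least 10 CPM in that fraction. The median is 51.2% in PeMP_TRAP and 6.72% in Input.

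Across these genes, which share libraries, the Spearman rho of length and coefficient of variation was 0.15 in PeMP_TRAP, 0.06 in MG_TRAP, 0.07 in SN_input and -0.23 in Input. The median in PeMP_TRAP was 46.0% over 20 members under 1000 bases and 61.1% over 28 above 2000 bases. These PeMP_TRAP libraries held 20442643 to 35584637 assigned reads, so the floor of 3 counts lay between 0.0847 and 0.147 CPM. Copies of a molecule made by PCR could not be told from separate molecules. Such floors include the error of counting alone.

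Control mice, which occur in the first set alone, gave the background of each step. Of 83 members tested, 0 were called in MG_TRAP against Input, 0 in PeMP_TRAP against SN_input and 0 in SN_input against Input, where 0.0135%, 0% and 0% of the 14771 genes were called with edgeR. At an unadjusted p under 0.05 the counts were 9, 5 and 2 members, where 7.45%, 17.4% and 6.84% of all genes passed. DESeq2 called 1, 1 and 0 members, where it called 1.51%, 8.63% and 0.907% of all genes. The medians over members were -1.28, -0.12 and -0.88, and over all genes 0, -0.27 and -0.11. The median in SN_input against Input was below 0 in control mice and above 0 in tamoxifen mice of the same set, at 0.89.

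The control Input libraries were uneven. Cox6a1 measured 507, 3019 and 3588 CPM in control Input (A, B, C) and 2318, 3101 and 2014 CPM in SN_input, with overlap. Cox4i1 measured 815, 1118 and 2654 CPM in Input and 2026, 1242 and 1724 CPM in SN_input, also with overlap. The fitted log2 fold changes were 0.48 ± 1.02 for Cox6a1 and 0.50 ± 0.73 for Cox4i1 (SE, adjusted p = 1.00 for both with edgeR). Atp5g2 aside, the genes named by rule ranged from -2.31 (Atp5g3) to 1.20 (Sdha) in MG_TRAP against Input, from -2.96 (Cox7c) to 1.89 (Atp5g1) in PeMP_TRAP against SN_input and from -1.61 (Atp5g1) to 0.50 (Cox4i1) in SN_input against Input.

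Tamoxifen against control called members in PeMP_TRAP, and in MG_TRAP only under alternatives. In Input, MG_TRAP and SN_input 0 of 83 were called with edgeR, where 0% of all genes were called in each. At an unadjusted p under 0.05 the counts were 2, 7 and 12 members, where 3.06%, 15.9% and 3.35% of all genes passed. DESeq2 called 0, 2 and 0 members, where it called 0.325%, 5.92% and 0.433% of all genes. Without library B edgeR called 9 members in MG_TRAP, where 0.286% of all genes were called. Medians over members were -0.21, 1.11 and 1.73, and over all genes 0.03, -0.14 and -0.15. In MG_TRAP 0 of the markers were called with edgeR, with medians of 3.04 for microglial, -1.95 for neuronal, -4.00 for astrocyte, -2.58 for oligodendrocyte and 1.72 for endothelial markers, and 240 other coding genes under 1000 bases had a median of 1.56. The part of these and of the uneven control libraries was not tested. Atp5g2 aside, the genes named by rule ranged from -0.67 (Atp5g3) to 0.94 (Cox7c) in Input, from -2.42 (Ndufs1) to 3.18 (Cox7c) in MG_TRAP and from -1.23 (Uqcrfs1) to 2.37 (Cox7c) in SN_input.

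In PeMP_TRAP 4 of 83 members were higher with tamoxifen and 0 lower, where 5.56% of all genes were higher and 5.56% lower, so the share of members was near the background. The median was 1.47 over members and 0 over all genes. Uqcrq measured 98.2, 363 and 144 CPM in control (A to C) and 679, 3026 and 3131 CPM in tamoxifen libraries (D to F), without overlap (log2 fold change 3.47 ± 1.17 SE, edgeR adjusted p = 0.0485). Ndufb3, an accessory complex I subunit, went from 21.5, 37.2 and 18.9 to 147, 344 and 200 CPM, also without overlap (3.35 ± 1.09 SE, edgeR adjusted p = 0.0416).

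The genes named by rule, Atp5g2 aside, lay between -1.87 (Ndufv1) and 4.53 (Cox7c) in this comparison, and none passed with edgeR (adjusted p from 0.10 to 1.00). Ndufs8, an iron-sulfur core subunit of complex I, measured 1.95, 23.9 and 69.6 CPM in control and 437, 122 and 196 CPM in tamoxifen PeMP_TRAP (3.17 ± 1.03 SE, edgeR adjusted p = 0.0410). Atp5o, the stalk protein that confers oligomycin sensitivity, measured 44.4, 15.9 and 0.492 CPM and 115, 105 and 220 CPM (3.16 ± 1.08 SE, edgeR adjusted p = 0.0497). Neither gene overlapped between the groups. Over all 14771 genes tested, 10.3% had tamoxifen libraries that all lay above the controls in CPM and 5.65% that all lay below, and over the 83 members 18 and 1. Leaving out B raised the count of members higher to 17, where 5.33% of all genes were higher. Leaving out A or C lowered it to 2, where 4.36% and 3.33% of all genes were higher, and leaving out E or F lowered it to 0, where 3.34% and 1.70% were. Removing the length trend also lowered it to 0, where 5.44% of all genes were higher. Markers moved with this comparison too, with 5 of 8 microglial higher (median 3.52) and 3 of 10 neuronal (median -2.45), 3 of 8 oligodendrocyte (median -2.19), 1 of 8 astrocyte (median -1.46) and 2 of 6 endothelial markers (median -8.23) lower. The control PeMP_TRAP libraries held 1135747 to 4069563 assigned reads, with 13.4%, 47.7% and 6.72% unaligned reads in A, B and C. The tamoxifen libraries D, E and F held 12602839, 2496823 and 746616 assigned reads, with 14.99%, 36.6% and 25.9% unaligned. Low depth and unaligned reads were thus not limited to the controls. The part of markers and library quality was not tested.

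The treatment differences of the enrichments called 0 of 83 members each with edgeR, where 0% of all genes were called for MG_TRAP and 1.24% for PeMP_TRAP, 0.914% higher and 0.325% lower. At an unadjusted p under 0.05 the counts were 2 and 1, and DESeq2 called 1 and 0. The shares of all genes were 9.19% and 19.8% at an unadjusted p, and 1.37% and 12.4% with DESeq2. Medians were 1.37 and 0.01 over members. Each group had 3 libraries. Atp5g2 aside, the genes named by rule lay between -2.65 (Atp5g1) and 2.92 (Cycs) in the treatment difference of the PeMP_TRAP enrichment and between -2.10 (Ndufv1) and 2.24 (Cox7c) in that of MG_TRAP, with edgeR adjusted p of at least 0.34.

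The authors' deposited table, fitted on first-set libraries, lists 83 of the members in 3 comparisons. In the authors' deposited table none of these members was under an adjusted p of 0.05 in MG_TRAP of tamoxifen mice against Input, in SN_input against Input or in PeMP_TRAP of tamoxifen mice against SN_input. The median log2 fold changes in the authors' deposited table were -0.13, -0.44 and 0.41.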

How the data were processed

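The authors deposited whole-number counts of reads per gene for each library. Per the labels' protocols, cDNA was amplified with SMART-Seq v4 and libraries came from the NEBNext Ultra II kit. Per the submitters' processing notes the tools were FastQC 0.11.7, Trimmomatic 0.38, Bowtie2 2.3.5, STAR 2.7.0d, HTSeq 0.9.1 and edgeR, and the genome build, annotation and counting options are not given in the sources used here. Per the file headers, the authors also deposited a table of log2 fold changes and adjusted p-values for 3 comparisons, which was read only as stated in the text. Symbols, lengths and coordinates came from GENCODE M21, and all 50714 shared identifiers matched it.

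Counts were fitted with edgeR 4.0.16 in R 4.3.3 (TMM scaling, filterByExpr with a minimum count of 10, quasi-likelihood test, Benjamini-Hochberg adjustment over all genes, threshold 0.05): 32 tamoxifen libraries with set as covariate (15710 genes), 24 first-set libraries (14771) and 32 libraries with set interactions (17961). SE is the log2 fold change over the square root of its F statistic. CPM per library are unscaled. Depth ranged from 746616 to 35584637 assigned reads. The fits were tested on simulated data. Alternatives were RLE factors, total counts, no filter, DESeq2 1.42.0, a removed length trend, each set alone, a replicate block and each letter left out.

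Named in the comparisons of tamoxifen fractions, and given by range where control mice enter and by counts between sets, were Ndufv1, Ndufs1, Ndufa4, Sdha, Sdhb, Uqcrc1, Uqcrfs1, Cycs, Cox4i1, Cox6a1, Cox6a2, Cox7c, Atp5a1, Atp5b and Atp5g1 to Atp5g3, plus the 3 largest and 3 lowest changes among called members with an average log2 CPM of at least 4, and all called members of a direction with 5 or fewer. Others were singled out after their values were seen. Members and lists were chosen with earlier results of these data known.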

Additional observations from a re-analysis of the deposited data

Results flagged for a closer look

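Of 76 groups of 5 or 8 libraries examined for a value far from the rest, 7 held one, and chance gives about 1 in 20. In second-set MG_TRAP, Sdha was at 137 CPM in replicate J and at a median of 328 CPM in the others. In second-set PeMP_TRAP, Uqcrfs1 was at 93.9 CPM in I (others 9.88), Cycs at 60.7 CPM in G (others 155), Cox6a2 at 296 CPM in I (others 39.5) and Atp5g3 at 466 CPM in H (others 271). Cox6a2 was also high in SN_input of I, at 114 CPM (others 65.1), and Cox4i1 in Input of G, at 1317 CPM (others 1159).

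Some members differed between contrasts by an interaction test (edgeR). Cox4i1 had a lower enrichment in the synaptosome fraction than in the homogenate, by -1.08 on the log2 scale (adjusted p = 0.039). For Ndufa4l2 the same term was fitted at -5.91 (adjusted p = 0.046), from counts near 0 that give no bound.

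Between the sets, the change of Sdha from MG_TRAP to PeMP_TRAP differed by -2.19 (adjusted p = 0.048): it went from 144, 97.0 and 99.8 to 298, 171 and 146 CPM in the first set (D, E, F), and from 328, 327, 365, 137 and 324 to 145, 143, 151, 64.3 and 263 CPM in the second. The call was kept without J and lost without any other letter and with the replicate block. Cox6b2, a testis isoform, was fitted at -8.60 for the same term and at -9.52 for PeMP_TRAP against SN_input (adjusted p = 0.038 and 0.026), but it was at 0 in all 5 second-set PeMP_TRAP libraries and at 25.7 CPM in D, so these are no bounds. Without D the adjusted p was 0.42 and 0.31.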

How the results depend on the processing

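The number of members called depended on the scaling, the tool and the set. For MG_TRAP against Input in tamoxifen mice, 0 became 10 with RLE factors and with DESeq2, 4 with total counts, 3 without a filter, 3 with the length trend removed and 12 in the second set alone. For PeMP_TRAP against SN_input, 16 became 27 with RLE factors, 30 with DESeq2, 36 with the length trend removed, 0 in the first set alone and 38 in the second. For PeMP_TRAP against MG_TRAP, 27 became 11 with RLE factors, 5 with total counts, 17 without a filter, 13 with DESeq2, 0 in the first set and 47 in the second. For SN_input against Input, 24 became 10 with RLE factors and with DESeq2, 5 with total counts, 0 in the first set and 43 in the second. For the enrichment difference, 2 became 0 with RLE factors, total counts, DESeq2 or the first set alone, 1 without a filter, 12 with the length trend removed and 11 in the second set. Tamoxifen against control in PeMP_TRAP went from 4 to 11 with DESeq2, where 27.8% of all genes were called, to 11 without a filter (6.46%) and to 0 with the length trend removed (10.4%). DESeq2 gave 2 for tamoxifen against control in MG_TRAP, and 1 for the treatment difference of the MG_TRAP enrichment and for each control enrichment, where edgeR gave 0. The set difference of PeMP_TRAP enrichment went from 1, where 15.1% of all genes were called, to 6 with the length trend removed. That of PeMP_TRAP against MG_TRAP went from 2, where 15.3% of all genes were called, to 4 with DESeq2. It went to 1 with RLE factors, total counts or the length trend removed. The share of all genes called in the first 4 comparisons above was 6.82%, 32.3%, 25.2% and 2.55% as reported. It was 7.14%, 34.3%, 28.4% and 1.55% with RLE factors and 6.89%, 31.7%, 28.5% and 2.06% with total counts. It was 11.2%, 39.6%, 32.7% and 3.24% with DESeq2. Without a filter, over 32165 genes, the shares were 8.16%, 22.1%, 18.965% and 1.64%. With the length trend removed they were 7.02%, 33.2%, 24.5% and 2.44%. For the enrichment difference the share was 11.3% as reported, 6.36% without a filter and 11.3% with the length trend removed.

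Leaving out 1 letter gave 0 to 4, 9 to 30, 12 to 45, 16 to 40 and 0 to 9 members for the 5 tamoxifen comparisons in the order above, 0 to 17 for PeMP_TRAP and 0 to 9 for MG_TRAP of tamoxifen against control, 0 to 3 for the set difference of PeMP_TRAP enrichment and 0 to 21 for that of PeMP_TRAP against MG_TRAP. The other 9 counts stayed at 0. Of all genes, 5.47% to 7.19%, 27.8% to 36.1%, 19.6% to 30.9%, 1.28% to 3.16% and 6.63% to 16.1% were called in the 5 tamoxifen comparisons. For tamoxifen against control these shares were 2.28% to 8.67% in PeMP_TRAP and 0% to 0.286% in MG_TRAP. Same-letter libraries deviated together with correlations of -0.05 to 0.27, not above 0.1 in every pair. In part of the pairs the same-letter library was still the best match of its group, as for Input and MG_TRAP of D (0.22, tamoxifen libraries). These values and the labels do not settle whether letters are pairs. Letters were not taken as pairs in the main fit, and the replicate block is the fit that uses them. With a replicate block the counts of the 5 tamoxifen comparisons were 1, 21, 37, 36 and 2. There 7.71%, 33.6%, 22.5%, 2.76% and 5.40% of all genes were called. The set differences of PeMP_TRAP enrichment and of PeMP_TRAP against MG_TRAP both went to 0 members with the block. The log2 fold change of Cox6a2 in PeMP_TRAP against SN_input, 0.14, turned to -2.32 with the length trend removed. The causes were not tested. First-set groups had 3 libraries each, and PeMP_TRAP of F held the fewest reads, 746616.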
